A study of Mus musculus with 16 samples.

Results

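The comparison described here sets liver tumors of reprogrammable mice against normal liver. It uses the 6 arrays titled liver tumor 1 to 3 and normal liver 1 to 3, out of 16 arrays in the series, and it covers the 19938 genes that had a probe set with a single gene symbol. Reprogrammable mice carry reprogramming factors that doxycycline (Dox) switches on. In the study's design Dox was given for 7 days to mice 4 weeks old, and kidney tumors were collected once 7 further days without Dox had passed. The liver tumors are called primary tumors of reprogrammable mice. Their own time of collection, and the age and Dox status of the mice that gave normal liver, are not given separately. The mice had been made from an ES cell line, on a 129xC57BL6 F1 background or a mixed one of the same strains. The tumors grew in chimeric mice, so a tumor sample can hold ICR host cells as well as cells derived from that line. No label states that replicates were separate animals. The p-values therefore reflect only the spread between arrays of a group, taken over the groups of all 16 arrays, and some of it can be technical.

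Reprogramming factors such as Oct4 (encoded by Pou5f1), Sox2, Klf4 and Myc can return a differentiated cell to a state like that of an ES cell, in which the cell renews itself and switches on Nanog and other pluripotency genes. A hepatocyte, the main cell of the liver, makes most plasma proteins, turns ammonia into urea, makes glucose and bile acids, and clears drugs and steroids with cytochrome P450 enzymes and conjugating enzymes. Before and around birth the liver uses a different set of genes, among them Afp, Igf2 and several imprinted genes, and liver tumors of mice and people are known to use some of these again. In RNA from whole tissue, fewer cells of a type and less RNA per cell cannot be told apart.

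Levels are given as the log2 of the deposited intensity, and a change is the level in tumors minus the level in normal liver on that scale, so that a change of 1 is a doubling. Errors are the standard errors (SE) of a limma fit over all 16 arrays, each group had n = 3, and a gene was called higher or lower at a Benjamini-Hochberg adjusted p under 0.05. Where 3 array values stand in a row, they are those of replicates 1, 2 and 3. The level of a probe set has no common scale with that of another, and the files hold no detection call, so a low level cannot be told from background.

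Normal liver and liver tumors formed separate groups. Across genes, the normal livers correlated with each other at 0.982 to 0.992 and the tumors at 0.970 to 0.982, and a tumor with a normal liver at 0.898 to 0.935. The arrays labelled liver carried the defining transcripts of hepatocytes: Alb, which encodes albumin, read 13.80, 13.89 and 13.76 in normal liver and 13.75, 13.54 and 13.74 in the tumors, against 6.42 in ES cells. Normal liver 1 stood apart, because it held transcripts of organs that lie beside the liver. Cyp11b1, an enzyme of the adrenal cortex, read 11.62 there against 6.27 and 6.04 in the other normal livers, and Ucp1 of brown fat read 10.78 against 5.91 and 5.80. The phosphate transporter Slc34a1 of the kidney tubule read 11.29, 9.54 and 7.75 in normal liver and 8.09, 8.37 and 7.63 in the tumors, so normal liver 2 was also above normal liver 3. The log2 of the summed intensity of 18 adrenal genes was 14.60, 12.85 and 12.91 in normal liver and 12.26 to 12.81 in the tumors. For 28 kidney tubule genes it was 14.00, 13.04 and 12.39 against 12.57 to 12.92, and for 13 adipocyte genes 15.01, 14.12 and 14.01 against 11.87 to 12.94. Normal liver 2 had more red cell RNA, with Alas2, the first enzyme of haem synthesis in red cell precursors, at 11.04, 12.41 and 10.61 in normal liver and 10.53, 8.97 and 9.90 in the tumors.

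**Figure D1:**
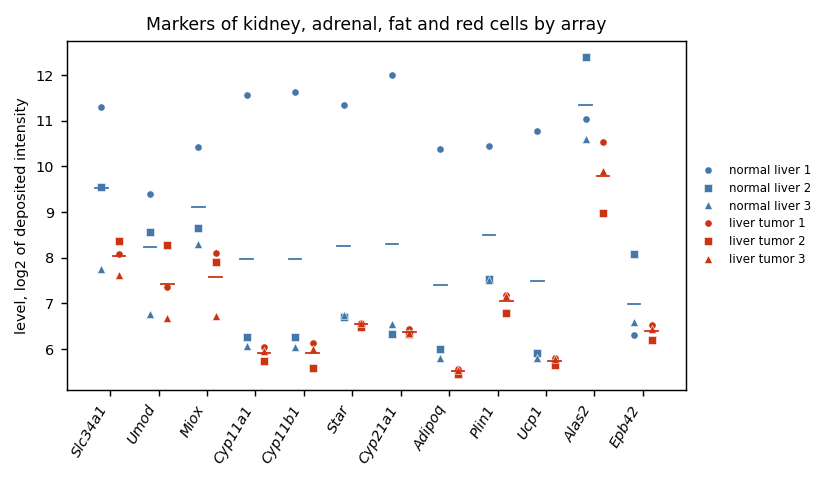
Levels (log2 of the deposited intensity) of kidney markers (Slc34a1, Umod, Miox), adrenal markers (Cyp11a1, Cyp11b1, Star, Cyp21a1), fat markers (Adipoq, Plin1, Ucp1) and red cell markers (Alas2, Epb42) in the 3 normal liver and 3 liver tumor arrays, with bars at the group means. Normal liver 1 is the highest array for each kidney, adrenal and fat marker shown, and normal liver 2 for both red cell markers.

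The tumors also differed among themselves in sex-linked transcripts. Xist, the RNA that coats the inactive X chromosome of female cells, read 5.99, 5.79 and 5.98 in normal liver and 5.88, 10.45 and 11.35 in the tumors. Eif2s3y, a gene of the Y chromosome, read 9.99, 10.03 and 10.10 and 10.09, 8.91 and 8.43. Liver tumors 2 and 3 thus had Xist signal together with a lower, though not absent, Y-linked signal, while liver tumor 1 had the male pattern of the 3 normal livers. Neither gene passed the test between groups (adjusted p = 0.053 and 0.12). The part of these differences between tumors in the results was not tested. Of the 260 called genes named in the text, 17 lost the call without normal liver 1: Azgp1, Cdkn1c, Cux2, Gpr182, Hrg, Igfbp1, Miox, Mir192, Mir200a, Mir335, Ndrg1, Phf19, Ring1, Sctr, Slc1a4, Tbx3 and Ttr. Miox, a kidney enzyme, moved from -1.54 to -0.89. With normal liver 2, normal liver 3, liver tumor 1, liver tumor 2 or liver tumor 3 left out, 28, 26, 8, 31 and 22 of the 260 lost it. In all, 42 lost the call when some array was left out, the 17 above and 25 more: Acta2, Aldh1a2, Asl, Bmp2, Cubn, Cyp2b13, Cyp7a1, Dnase1l3, Gata6, Gfap, Hnf4a, Hoxa2, Hoxb3, Krt19, Lrp2, Mat1a, Mirlet7a-1, Orm2, Rspo3, Tat, Timd4, Tk1, Trim10, Upk1b and Wt1. A further 13 kept it with each array left out in turn and lost it when the 6 liver arrays were fitted alone: Bmp10, Cdx1, Clec4f, Cps1, Crp, Dlk1, L1td1, Mir302b, Mir302c, Mir302d, Mmp9, Pdgfra and Wnt9b.

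The groups differed over much of the transcriptome: 10419 of 19938 genes (52.3%) passed the test, 4296 higher in tumors (21.5%) and 6123 lower (30.7%). Of these, 1431 were at least 2-fold higher (7.18%) and 990 at least 2-fold lower (4.97%). The median change over all genes was -0.13, and 2323 of the 6123 lower genes lay among the dimmest 33.3% of genes, where 263 were higher. Genes higher in tumors made up 41.2% of the calls, against 29.3% when each array was centred on its median, which moved the median change of all genes to -0.24, and 51.6% when these dim genes were left out. Without normal liver 1 the counts were 3969 higher (19.9%) and 5408 lower (27.1%), of which 3822 and 5164 were shared with the full comparison.

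The gene of largest rise was Emb, which encodes embigin, a membrane partner of lactate transporters. Emb read 7.29, 5.90 and 5.55 in normal liver and 11.69, 12.52 and 11.53 in the tumors, a change of 5.66 (SE 0.35, adjusted p = 2.1e-07), or 50.6-fold. Next came Fndc3c1 at 4.92 (SE 0.26, adjusted p = 4.1e-08), Slc2a3 at 4.83 (SE 0.19, adjusted p = 7.2e-09) and Bex1 at 4.81 (SE 0.23, adjusted p = 2.9e-08). Slc2a3 encodes the neuronal and embryonic glucose transporter GLUT3. The homeobox gene Otx2 changed by 4.65 and the zinc finger gene Zic2 by 4.53, both factors of the epiblast and the early brain. Crabp1, a retinoic acid binding protein, read 8.16, 7.98 and 7.93 in normal liver and 12.42, 12.35 and 12.84 in the tumors. The other genes among the 12 of largest rise were Car4 at 4.48, Peg10 at 4.34, Prtg at 4.29, Trh at 4.29 and Zdbf2 at 4.28. The rule that chose these 12, and the 12 falls below, asked for groups that do not overlap and for a call that holds without normal liver 1. Among all genes every tumor was above every normal liver for 22% and below for 37.2%.

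The 12 largest falls were led by enzymes of steroid, fatty acid and drug metabolism that mature male mouse liver makes in quantity. Hsd3b5, a 3-ketosteroid reductase of adult male liver, read 11.91, 12.09 and 10.76 in normal liver and 5.43, 6.12 and 5.29 in the tumors, a change of -5.97 (SE 0.30, adjusted p = 3e-08). The fatty acid hydroxylases Cyp4a12a and Cyp4a12b changed by -5.83 (SE 0.70, adjusted p = 2.9e-05) and -5.66 (SE 0.55, adjusted p = 5.5e-06), and Elovl3, which lengthens fatty acids, by -5.63 (SE 0.46, adjusted p = 1.5e-06). These 4 are all genes of the male-biased program. Cyp4a14, another fatty acid hydroxylase, read 12.58, 12.66 and 12.97 and 7.64, 7.61 and 7.82, a change of -5.04 (SE 0.35, adjusted p = 4.8e-07). Cyp2c55 changed by -5.01, the sulfotransferase Sult2a8 by -4.36, the carboxylesterases Ces2a, Ces1e and Ces1f by -4.08, -3.64 and -3.58, Hsd3b2 by -3.69 and Etnppl, which breaks down phosphoethanolamine, by -3.56. The tumors were not alike in all of them: Sult2a8 read 5.76, 8.26 and 8.27 and Ces1f 7.06, 9.56 and 9.27, lowest in liver tumor 1, whereas Etnppl read 9.43, 6.87 and 6.49, highest in liver tumor 1.

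Of the 4 reprogramming factors, 3 rose and Klf4 did not pass the test. Pou5f1 read 6.48, 6.51 and 6.25 in normal liver, 10.83, 9.72 and 8.55 in the tumors and 12.33 in ES cells, a change of 3.29 (SE 0.42, adjusted p = 4.9e-05), or 9.76-fold. Sox2 read 5.93, 6.30 and 6.07, 10.51, 10.38 and 10.10 and 11.92, a change of 4.23 (SE 0.24, adjusted p = 8e-08). Every tumor lay above every normal liver for both factors. Pou5f1 was highest in liver tumor 1 and lowest in liver tumor 3, while Sox2 spread less among the tumors. Myc, which most growing cells use, read 8.91, 8.47 and 8.34 in normal liver, 10.25, 10.06 and 11.07 in the tumors and 10.06 in ES cells, a change of 1.89 (SE 0.25, adjusted p = 5.8e-05). Klf4 read 7.90, 7.67 and 7.78 in normal liver and 7.68, 7.59 and 8.11 in the tumors against 10.65 in ES cells, a difference of 0.01 (SE 0.22, adjusted p = 0.96). The files do not say whether these probe sets read the endogenous gene, the introduced factor or both.

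Nanog, a pluripotency factor that Oct4 and Sox2 are known to bind and switch on, read 6.69, 6.86 and 6.92 in normal liver, 10.45, 9.85 and 9.21 in the tumors and 12.93 in ES cells. Its change was 3.02 (SE 0.27, adjusted p = 3.4e-06), 8.08-fold, and the order of the tumors was that of Pou5f1. The stretch upstream of the Nanog start sites is shown because it holds the core of the composite Oct4-Sox2 motif, TGCATNACA (N is any base, searched on both strands), whose match is in capitals. It spans chr6:122707315-122707488 on the plus strand of GRCm38.p6 (RefSeq), 174 bases that end just before the first of the start sites of the 2 RefSeq windows, and the match begins 73 and 149 bases before them.
Nanog upstream: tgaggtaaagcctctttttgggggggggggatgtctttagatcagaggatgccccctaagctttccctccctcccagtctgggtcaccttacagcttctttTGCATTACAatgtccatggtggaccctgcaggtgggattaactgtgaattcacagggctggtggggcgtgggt
Of 32851 RefSeq promoter windows of 300 bases, 263 (0.801%) hold the motif, in 256 genes. The match is a description of the sequence, not a measured binding site.

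Among 27 measured pluripotency genes 9 rose and 4 fell, with a median change of -0.17 against -0.13 over all genes. Tdgf1, a co-receptor of Nodal, read 6.13, 6.39 and 6.47 in normal liver and 10.18, 9.46 and 8.95 in the tumors, a change of 3.20 (SE 0.34, adjusted p = 1e-05). Sall4, a zinc finger partner of Oct4, read 7.33, 7.43 and 7.84 and 10.87, 10.93 and 10.39, a change of 3.19 (SE 0.15, adjusted p = 2.8e-08). Lin28a, which blocks maturation of let-7 microRNAs, changed by 3.14 (SE 0.15, adjusted p = 2.9e-08), and its relative Lin28b by 2.71 (SE 0.19, adjusted p = 5.6e-07). The others in the list were Nanog, Utf1 at 2.42, Mycn at 2.36, Trim71 at 2.11, Zscan10 at 1.87 and L1td1 at 1.05, or 0.65 without liver tumor 1.

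Other genes of the list that are high in ES cells had no tumor array near the ES cell level. Dppa5a read 6.25, 6.20 and 6.04 in the tumors and 13.03 in ES cells, Dppa2 6.04, 6.12 and 6.10 and 11.77, and Fbxo15 5.13, 5.28 and 5.15 and 10.98. Dnmt3l, a cofactor of DNA methylation in germ cells and ES cells, read 6.19, 5.89 and 6.04 in the tumors and 11.83 in ES cells. The nuclear receptor Esrrb read 6.68, 6.39 and 6.57 and 11.33, and Zfp42, a classic ES cell marker, 5.91, 5.85 and 6.06 and 8.60. None of these 6 was called higher in tumors. The 4 that fell were Nr5a2 at -1.04, Dppa3 at -0.59, Dppa4 at -0.53 and Tbx3 at -0.40. Nr5a2 is also a hepatocyte factor that controls bile acid genes.

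**Figure D2:**
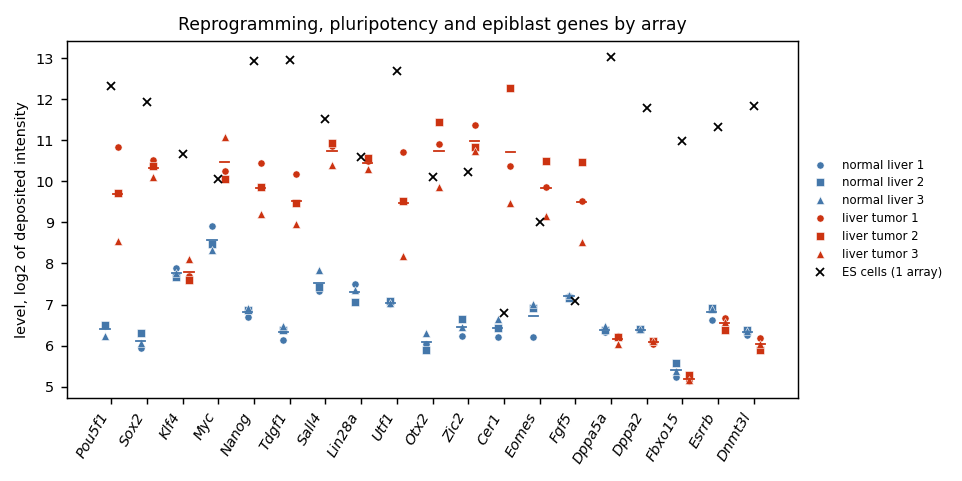
Levels (log2 of the deposited intensity) of reprogramming factors, pluripotency genes and genes of the primed epiblast in each of 3 normal liver arrays, 3 liver tumor arrays and 1 ES cell array, with bars at the group means. Pou5f1, Sox2, Nanog, Tdgf1, Sall4, Lin28a, Utf1, Otx2, Zic2, Cer1, Eomes and Fgf5 are higher in every tumor than in any normal liver, Klf4 overlaps, and Dppa5a, Dppa2, Fbxo15, Esrrb and Dnmt3l stay at the level of normal liver.

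Genes of the primed epiblast and the mesendoderm, the stage after the ES cell state, rose in most cases: 14 of 21 were higher, 1 was lower, and the median change was 1.47. Cer1, a secreted inhibitor of Nodal, BMP and Wnt, read 6.21, 6.42 and 6.64 in normal liver, 10.38, 12.26 and 9.48 in the tumors and 6.79 in ES cells, a change of 4.28 (SE 0.51, adjusted p = 2.6e-05). Eomes, a T-box factor of mesendoderm, read 6.21, 6.91 and 7.02 and 9.87, 10.49 and 9.16, a change of 3.12 (SE 0.28, adjusted p = 3.3e-06). Fgf5, the standard marker of primed epiblast, read 7.21, 7.16 and 7.24 in normal liver, 9.52, 10.47 and 8.53 in the tumors and 7.09 in ES cells, a change of 2.31 (SE 0.35, adjusted p = 0.00018). Cer1 and Fgf5 were therefore above the ES cell array in all 3 tumors, and both were highest in liver tumor 2. Otx2 and Zic2 belong to this list as well. The Nodal feedback inhibitors Lefty1 and Lefty2 changed by 2.20 and 2.20, Lhx1 by 1.96, Mixl1 by 1.59, Nodal by 1.47 and the endoderm factor Sox17 by 1.13. Dnmt3b, a de novo DNA methyltransferase, read 8.17, 8.20 and 8.44 in normal liver and 10.91, 10.25 and 9.36 in the tumors. The one gene that fell was Cdx1, at -0.40, or -0.26 without liver tumor 2.

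The microRNAs of the miR-302 cluster, which also holds miR-367, are known to be abundant in human ES cells and in cells like primed epiblast, and Oct4 and Sox2 are known to bind at their promoter. Their mature sequences are shown because miR-302b and miR-302d share a seed, bases 2 to 8, the part that pairs with target mRNAs. The seed of each is in capitals. Also shown are the other 2 microRNAs of the list whose hairpins rose, miR-18a and miR-127.
mmu-miR-302b-3p: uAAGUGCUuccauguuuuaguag
mmu-miR-302d-3p: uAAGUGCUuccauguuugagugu
mmu-miR-302c-3p: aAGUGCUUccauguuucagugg
mmu-miR-367-3p: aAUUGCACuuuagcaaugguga
mmu-miR-18a-5p: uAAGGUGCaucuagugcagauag
mmu-miR-127-3p: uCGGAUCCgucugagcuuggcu
The sequences are those of RefSeq on GRCm38.p6. The seed AAGUGCU occurs in 5 of 1738 mature mouse microRNAs of that table. The entry for miR-302c begins 1 base later, so that its bases 2 to 8 read AGUGCUU. On the plus strand of chromosome 3 the order is miR-302b (chr3:127545275-127545297), miR-302c (chr3:127545406-127545427), miR-302d (chr3:127545665-127545687) and miR-367 (chr3:127545779-127545800), all within the span of the gene Larp7 (chr3:127536714-127553349). The sequence of miR-302a-3p was not in the table.

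Of 28 measured microRNA hairpins 6 rose and 5 fell, with a median change of 0.00, against 21.5% and 30.7% of all genes. Quantile normalization gave 9 and 2, centring on the median 6 and 8, leaving out normal liver 1 gave 6 and 2, and the 6 liver arrays alone 3 and 1. These probe sets read the hairpin or its primary transcript, not the mature microRNA, and hairpins of a cluster share a transcript, so they are not independent. Mir302d read 5.51, 5.54 and 5.36 in normal liver and 9.60, 7.25 and 6.24 in the tumors, a change of 2.23 (SE 0.59, adjusted p = 0.0071). Mir302a changed by 2.16 (SE 0.54, adjusted p = 0.0054), Mir302c by 2.05 (SE 0.54, adjusted p = 0.0069) and Mir302b by 2.02 (SE 0.56, adjusted p = 0.0094). For all 4, liver tumor 1 was the highest and liver tumor 3 the lowest tumor, the order also seen for Pou5f1 and Nanog. Without liver tumor 1 the changes of Mir302a, Mir302b, Mir302c and Mir302d were 1.29, 1.24, 1.23 and 1.27. Mir367, the last hairpin of the cluster, read 4.55, 4.59 and 4.64 and 6.46, 5.13 and 4.60 and missed the threshold at 0.80 (SE 0.33, adjusted p = 0.058). In the single ES cell array Mir302d read 5.82, below every tumor. With the 6 liver arrays fitted alone, Mir302a kept its call (adjusted p = 0.049) and Mir302b, Mir302c and Mir302d lost it (adjusted p = 0.053, 0.054 and 0.061). Larp7, named after its values were seen because its span holds the cluster, changed by 0.99 (SE 0.20, adjusted p = 0.0015) and read 10.31, 10.93 and 9.99 in the tumors, an order unlike that of the hairpins.

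Mir18, a hairpin of a cluster that promotes growth, read 6.20, 6.30 and 6.60 in normal liver and 7.99, 7.38 and 7.17 in the tumors, a change of 1.15 (SE 0.21, adjusted p = 0.00064). Mir127, from the imprinted Dlk1-Dio3 region, changed by 0.85 (SE 0.13, adjusted p = 0.00017). Mir122, the most abundant microRNA of hepatocytes, read 7.03, 7.27 and 6.71 in normal liver and 6.30, 6.02 and 5.88 in the tumors, a change of -0.94 (SE 0.15, adjusted p = 0.00029), and each tumor lay below each normal liver. The other hairpins that fell were Mir192 at -0.36, Mirlet7a-1 at -0.26, Mir335 at -0.25 and Mir200a at -0.22. Without liver tumor 2, Mirlet7a-1 was at -0.15 and Mir200a at -0.12.

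**Figure D3:**
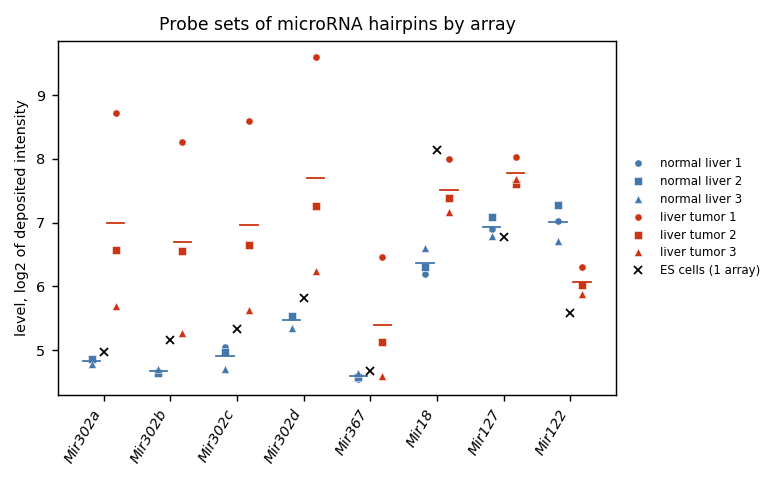
Levels (log2 of the deposited intensity) of probe sets for microRNA hairpins in each of 3 normal liver arrays, 3 liver tumor arrays and 1 ES cell array, with bars at the group means. The 4 miR-302 hairpins are highest in liver tumor 1 and lowest in liver tumor 3 among the tumors, and Mir122 is lower in every tumor than in any normal liver.

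Most genes of cell division rose. Of 29 DNA replication genes 27 were higher and 1 lower, with a median change of 0.99, and of 29 genes of mitosis 23 were higher and none lower, with a median of 1.09. Hells, a chromatin remodeler of replicating DNA, read 7.18, 7.15 and 7.97 in normal liver and 9.50, 9.95 and 9.47 in the tumors, a change of 2.21 (SE 0.26, adjusted p = 2.6e-05). Uhrf1, which guides maintenance DNA methylation, changed by 2.03 (SE 0.21, adjusted p = 9e-06) and Mcm2, a subunit of the replicative helicase, by 1.63 (SE 0.15, adjusted p = 4.2e-06). The gene that fell was Tk1, thymidine kinase, at -0.58 (SE 0.18, adjusted p = 0.017). The checkpoint kinase gene Bub1 read 7.55, 7.73 and 8.85 in normal liver and 10.46, 11.14 and 10.55 in the tumors, a change of 2.68 (SE 0.29, adjusted p = 1.3e-05). Kif23, needed for cytokinesis, changed by 2.08 (SE 0.24, adjusted p = 2.3e-05) and the topoisomerase gene Top2a by 1.95 (SE 0.27, adjusted p = 8.9e-05). Normal liver 3 was the highest normal liver for Bub1, Top2a and Mki67, whose values there were 8.85, 9.78 and 10.52. With normal liver 3 as the only control, the median of the mitosis genes was 0.44 in place of 1.09 and 8 were called higher, and for DNA replication the median was 0.68 in place of 0.99 and 11 were called, among 13.7% of all genes. With liver tumor 1 as the only tumor the medians were 0.80 and 0.85, and 8 genes of mitosis and 14 of DNA replication were called, among 13.1% of all genes.

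Oncofetal genes, those of fetal liver that tumors use again, rose in 18 of 20 cases and fell in 1. Among all genes 21.5% rose and 30.7% fell, and the median change of the list was 2.70. Its median level was 10.49, 11.35 and 10.64 in the tumors and 10.52 in the ES cell array. A fetal liver program and one shared with ES cells cannot be told apart by this list. Igf2bp1, which binds and stabilises fetal mRNAs, read 6.49, 7.01 and 7.03 in normal liver and 10.96, 11.39 and 11.02 in the tumors, a change of 4.28 (SE 0.19, adjusted p = 1.5e-08). Gpc3, a cell surface proteoglycan used as a marker of hepatocellular carcinoma, read 9.29, 8.18 and 9.59 and 11.55, 12.72 and 12.25, a change of 3.16 (SE 0.32, adjusted p = 8e-06). Peg10 and Prtg also belong here, and the tight junction gene Cldn6 changed by 3.76 (SE 0.32, adjusted p = 2.3e-06), the adhesion gene Epcam by 2.83 (SE 0.33, adjusted p = 2.3e-05) and Hmga2, a fetal chromatin protein, by 2.69 (SE 0.24, adjusted p = 3.5e-06). Afp, alpha-fetoprotein, read 6.98, 7.32 and 7.87 in normal liver and 8.10, 10.02 and 8.83 in the tumors, a change of 1.59 (SE 0.40, adjusted p = 0.0053). Its change in liver tumor 1 alone was 0.71 (adjusted p = 0.18). With normal liver 3 as the only control its adjusted p was 0.16. Ahsg was not called, at -0.11 (adjusted p = 0.7). Cdkn1c, a growth inhibitor, was the one that fell, at -0.50 (adjusted p = 0.025).

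Imprinted genes, which are read from only one parental copy, rose in 14 of 24 cases and fell in 1, Cdkn1c again, with a median change of 1.15. Mest read 9.16, 8.63 and 9.13 in normal liver and 12.54, 12.93 and 12.95 in the tumors, a change of 3.83 (SE 0.24, adjusted p = 2.1e-07), and Peg3, a zinc finger gene, read 8.64, 8.19 and 8.41 and 11.66, 12.61 and 12.55, a change of 3.86 (SE 0.27, adjusted p = 4.4e-07). Both are read from the paternal copy. Nnat, an imprinted gene of brain and endocrine tissue, read 9.48, 7.19 and 7.09 in normal liver and 11.37, 12.32 and 12.12 in the tumors, a change of 4.02 (SE 0.59, adjusted p = 0.00014). Ndn read 10.08, 8.03 and 8.51 and 10.78, 11.50 and 11.31, and it changed by 2.33 (SE 0.42, adjusted p = 0.00061). In Peg10, Nnat and Ndn normal liver 1 was the highest normal liver, the array with adrenal and fat transcripts, and without it the changes were 5.08, 4.80 and 2.93. Igf2, the fetal growth factor, read 7.88, 7.77 and 7.60 in normal liver and 8.86, 11.40 and 9.13 in the tumors, a change of 2.05 (SE 0.46, adjusted p = 0.0027), with liver tumor 2 far above the others and a change of 1.25 without it. Dlk1 had the same order, 8.84, 11.13 and 9.79 in the tumors against 8.71, 8.35 and 8.28 in normal liver, a change of 1.47 (SE 0.40, adjusted p = 0.0081), or 0.87 without liver tumor 2. Plagl1 and Asb4 changed by 3.23 and 3.22.

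Genes of ribosome production and of chromatin were higher in most cases too. Of 24 genes of ribosome biogenesis 20 rose and none fell, with a median of 0.83. Npm1, nucleophosmin, read 10.26, 10.22 and 10.32 in normal liver and 11.99, 11.996 and 11.90 in the tumors, a change of 1.70 (SE 0.09, adjusted p = 3.8e-08), and the groups did not overlap. Nop58, Gnl3 and Ncl, all nucleolar proteins, changed by 1.53, 1.49 and 1.08. Of 28 Polycomb and DNA methylation genes 18 rose and 3 fell, with a median of 0.59. Tet1, which oxidises methylated cytosine, read 7.51, 7.24 and 6.81 in normal liver, 10.40, 10.11 and 10.05 in the tumors and 11.997 in ES cells, a change of 3.00 (SE 0.18, adjusted p = 1.6e-07). Ezh2, the methyltransferase of Polycomb complex PRC2, read 9.56, 9.81 and 10.01 and 11.03, 11.51 and 11.20, a change of 1.45 (SE 0.18, adjusted p = 4.2e-05). Phc1 and the maintenance methyltransferase gene Dnmt1 changed by 2.01 and 1.49. The 3 that fell were Cbx8 at -0.42, Ring1 at -0.34 and Phf19 at -0.25, and without normal liver 1 or with the 6 liver arrays alone 1 fell. Ring1 was at -0.22 without liver tumor 2 and Phf19 at -0.15 without liver tumor 1.

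Sugar uptake and glycolysis genes rose in part. In the list of glycolysis and hypoxia genes 17 of 28 were higher and 2 lower, with a median of 0.45. Slc2a3 read 8.07, 8.06 and 7.23 in normal liver, 12.39, 12.87 and 12.60 in the tumors and 12.99 in ES cells. Slc16a3, a lactate exporter, read 8.03, 7.77 and 7.76 in normal liver and 11.07, 11.54 and 11.30 in the tumors, a change of 3.45 (SE 0.14, adjusted p = 7.2e-09). Slc2a1, the general glucose transporter GLUT1, read 10.36, 10.48 and 10.60 and 12.75, 13.19 and 13.08, a change of 2.53 (SE 0.13, adjusted p = 4.4e-08). Pkm, the pyruvate kinase of growing cells, changed by 2.36 (SE 0.23, adjusted p = 6e-06) and the hexokinase gene Hk2 by 2.25 (SE 0.22, adjusted p = 4.9e-06). Aldoc and Ndrg1 fell, at -1.24 and -0.71. The list of serine, glycine and one-carbon metabolism split by direction, with 10 of 20 higher, 7 lower and a median of 0.28. Psat1, an enzyme of serine synthesis, read 8.34, 7.81 and 8.55 in normal liver and 11.06, 10.79 and 10.34 in the tumors, a change of 2.49 (SE 0.20, adjusted p = 1.1e-06), and the other members of largest rise, Mthfd1l, Mthfd2 and Phgdh, changed by 2.08, 1.63 and 1.36. Among those that fell were Aldh1l1, Amt, Gldc and Shmt1, at -1.60, -1.42, -1.14 and -1.13.

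Of 26 genes of plasma proteins none rose and 8 fell, near the share of all genes that fell (30.7%), with a median of -0.38. In 19 of the 26 every tumor was below every normal liver, against 37.2% of all genes, and 13 fell with the 6 liver arrays alone and 5 without normal liver 1. Alb had a difference of -0.14 (SE 0.35, adjusted p = 0.75) and was not called. Several of these probe sets, Alb and Ttr among them, read between 13 and 14, near the top of the scale, as the arrays' highest levels were 14.1 to 14.3. Ttr, transthyretin, read 13.87, 13.88 and 13.90 in normal liver and 13.24, 13.35 and 13.42 in the tumors, a change of -0.55 (SE 0.19, adjusted p = 0.029). Serpina6, the corticosteroid carrier, had the largest fall at -1.33 (SE 0.32, adjusted p = 0.0043), and Azgp1, Itih1 and Hrg changed by -0.76, -0.72 and -0.67. Coagulation and complement genes fell in 19 of 28 cases with none higher and a median of -0.65. Mbl1, a mannose-binding lectin, read 11.42, 11.54 and 11.49 and 9.92, 10.003 and 9.52, a change of -1.67 (SE 0.20, adjusted p = 2.6e-05). C8b, of the complement attack complex, read 13.11, 13.20 and 13.11 and 11.88, 11.71 and 11.62, a change of -1.40 (SE 0.10, adjusted p = 4.9e-07), and F11 and Masp2 changed by -1.24 and -1.23.

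Acute phase genes, which the liver makes in inflammation, rose in 7 of 20 cases and fell in 1, with a median of 0.28. The metallothionein gene Mt2 read 9.25, 9.26 and 8.91 in normal liver and 13.34, 12.70 and 13.04 in the tumors, a change of 3.89 (SE 0.25, adjusted p = 2.7e-07). Lcn2, an iron-scavenging protein, read 10.06, 10.33 and 10.72 and 13.52, 12.63 and 13.18, a change of 2.74 (SE 0.51, adjusted p = 0.00079). Mt1 and Orm2 changed by 2.23 (adjusted p = 0.00023) and 1.70 (adjusted p = 0.015), and Crp fell, at -0.45 (adjusted p = 0.0055). Hamp, the iron hormone hepcidin, read 12.46, 12.43 and 12.73 in normal liver and 10.38, 12.44 and 12.55 in the tumors, where liver tumor 1 stood below the others, and it was not called.

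Transcription factors of the liver fell in 20 of 28 cases and rose in 2, with a median of -0.88. Nr0b2, a repressor of bile acid synthesis, read 11.51, 11.50 and 11.71 in normal liver and 9.18, 9.40 and 8.52 in the tumors, a change of -2.54 (SE 0.24, adjusted p = 4.4e-06). Cebpa, which holds hepatocytes out of the cell cycle and drives metabolic genes, read 11.31, 11.30 and 11.31 and 9.86, 9.82 and 9.78, a change of -1.49 (SE 0.19, adjusted p = 4e-05), with all 3 tumors at nearly the same level. Hnf4a, the central factor of the hepatocyte program, read 12.45, 12.59 and 12.43 in normal liver and 12.12, 11.57 and 11.09 in the tumors, a change of -0.89 (SE 0.30, adjusted p = 0.024). The thyroid hormone receptor gene Thrb and the factor gene Creb3l3 changed by -1.82 (adjusted p = 0.00019) and -1.49 (adjusted p = 7.4e-07). The 2 that rose were Tox3, which read 6.43, 6.59 and 6.98 and 9.03, 10.12 and 8.97, at 2.71 (SE 0.26, adjusted p = 4.8e-06), and Gata6, a factor of early endoderm, at 0.76 (SE 0.25, adjusted p = 0.023). In liver tumor 1 alone Gata6 was at -0.03 (adjusted p = 0.91), on the other side of 0, and without liver tumor 2 it was at 0.49 (adjusted p = 0.11).

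Most detoxification enzymes fell. Of 33 cytochrome P450 genes 26 were lower and 1 was higher, with a median of -1.44, and of 32 conjugation enzymes 27 were lower and none higher, with a median of -1.33. Cyp1a2, which metabolises caffeine and many drugs, read 12.56, 12.72 and 12.53 in normal liver and 8.58, 9.31 and 9.46 in the tumors, a change of -3.49 (SE 0.17, adjusted p = 2.9e-08). Cyp2u1 and Cyp2c37 changed by -3.04 and -2.90. The one that rose was Cyp2c39, which read 8.17, 8.72 and 9.12 in normal liver and 12.54, 11.92 and 11.52 in the tumors, a change of 3.32 (SE 0.24, adjusted p = 6.4e-07). Its array values separated the groups completely, although Cyp2c genes are near-identical and a probe set can read more than its own gene. Cyp2e1, which metabolises ethanol, read 13.72, 13.69 and 13.67 and 13.38, 13.14 and 12.99, near the top of the scale. It was not called (-0.53 (adjusted p = 0.61)), although every tumor was below every normal liver, as for 37.2% of all genes. The test takes its spread from all groups of the series, not from the liver arrays alone. Among conjugating enzymes the sulfotransferase gene Sult1b1 changed by -2.58 (SE 0.23, adjusted p = 3.3e-06), the glutathione transferase gene Gstm6 by -2.55 (SE 0.18, adjusted p = 4.3e-07), and the glucuronosyltransferase genes Ugt2b38 and Ugt2b35 by -2.06 and -2.01.

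Sex-biased liver genes, which growth hormone pulses set apart in male and female mice, fell mainly on the male side. All normal livers had the male pattern of Xist and Eif2s3y, so there was no female control. The median level of the male-biased list in normal liver was 12.004, 12.09 and 11.40. That of the female-biased list was 7.70, 7.71 and 8.65, which left it less room to fall. The part of these starting levels in the difference between the lists was not tested. Of 17 male-biased genes 13 fell and none rose, with a median of -1.74. With normal liver 3 as the only control the median was -1.38 and 7 fell, among 17.6% of all genes. Besides the 4 genes above, Nudt7, a peroxisomal enzyme that breaks down coenzyme A, changed by -3.34 (SE 0.17, adjusted p = 3.9e-08). Elovl3 read 12.42, 12.36 and 10.002 in normal liver and 6.05, 5.84 and 6.01 in the tumors, with normal liver 3 below the other normal livers. Of 13 female-biased genes 2 rose and 4 fell, against 21.5% and 30.7% of all genes, with a median of -0.68. Prom1 and Cux2 were higher, at 1.63 and 0.49, and Hao2, Cyp3a44, Cyp2b13 and Cyp2b9 lower, at -2.15, -1.67, -1.50 and -1.05. Without liver tumor 1, Cux2 was at 0.28 (adjusted p = 0.12) and Cyp2b13 at -0.94. Others differed between arrays of a group more than between groups: A1bg read 6.74, 6.96 and 10.25 in normal liver and 6.64, 11.07 and 8.29 in the tumors, and Cyp3a16 read 5.62, 5.75 and 8.61 and 6.97, 10.18 and 7.72. Both were highest in normal liver 3 among the normal livers, where Xist read 5.98, and in liver tumor 2 among the tumors.

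Bile acid genes fell in 25 of 29 cases and none rose, with a median of -1.45. Cyp8b1, which makes cholic acid, read 11.10, 11.07 and 11.10 in normal liver and 9.13, 8.13 and 8.08 in the tumors, a change of -2.64 (SE 0.21, adjusted p = 1.2e-06). Akr1d1, a reductase of bile acid synthesis, and Slco1b2, an uptake transporter, changed by -2.24 and -2.18. Abcb11, the bile salt export pump, changed by -1.82 (SE 0.18, adjusted p = 7e-06). Cyp7a1, the rate-limiting enzyme of bile acid synthesis, read 10.22, 9.94 and 11.31 in normal liver and 10.41, 8.41 and 6.36 in the tumors, a change of -2.10 (SE 0.70, adjusted p = 0.024). For Cyp7a1 liver tumor 1 lay within the range of normal liver and liver tumor 3 far below it, and without liver tumor 3 its change was -1.08 (adjusted p = 0.078). The uptake transporter gene Slc10a1 read 13.11, 13.15 and 13.11 and 12.52, 11.52 and 11.04, with the same order of tumors. Cholesterol and fatty acid synthesis genes fell in 22 of 24 cases and none rose, with a median of -1.27. Thrsp, a regulator of fat synthesis, read 11.63, 11.28 and 11.38 and 9.31, 8.52 and 7.80, a change of -2.89 (SE 0.60, adjusted p = 0.0017). Sc5d, an enzyme of late cholesterol synthesis, Acacb, Me1, the fatty acid synthase gene Fasn and the regulator Srebf1 changed by -1.94, -1.91, -1.71, -1.26 and -1.45. Scd1 at -0.44 (adjusted p = 0.43) and Srebf2 at -0.14 (adjusted p = 0.3) were the 2 that did not pass the test.

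In the urea cycle and amino acid breakdown 32 of 34 genes fell and none rose, with a median of -1.47. The tumors were unequal here: the median difference from the mean of normal liver was -0.70 in liver tumor 1, -1.59 in liver tumor 2 and -2.14 in liver tumor 3. Cps1, which starts the urea cycle, read 13.50, 13.45 and 13.54 in normal liver and 13.39, 11.98 and 11.46 in the tumors, a change of -1.22 (SE 0.33, adjusted p = 0.0089). Asl, the next-to-last enzyme of the cycle, read 11.75, 11.83 and 11.83 and 11.91, 9.86 and 9.69, a change of -1.32 (SE 0.42, adjusted p = 0.02). Arg1, the last, read 12.17, 12.15 and 12.42 and 12.33, 10.42 and 9.91, and it was not called (-1.36 (adjusted p = 0.059)). For these 3 genes liver tumor 1 lay beside normal liver and the other tumors well below it. With liver tumor 1 as the only tumor, Cps1 was at -0.11 (adjusted p = 0.54) and Asl at 0.10 (adjusted p = 0.72), and 14 genes of the list in place of 32 were called lower, among 16.3% of all genes. With normal liver 3 as the only control 16 were, among 17.6%. Without liver tumor 3 Cps1 was at -0.81, and without liver tumor 1 Asl was at -2.03. Otc, the second enzyme of the cycle, was lower in every tumor, 11.03, 10.60 and 10.14 against 12.02, 12.29 and 12.09, a change of -1.54 (SE 0.17, adjusted p = 1.5e-05).

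Amino acid enzymes showed both patterns. Amdhd1 of histidine breakdown read 11.79, 11.88 and 11.87 in normal liver and 9.43, 9.999 and 8.64 in the tumors, a change of -2.49 (SE 0.23, adjusted p = 4.4e-06), with liver tumor 1 among the low arrays. Hal, the first enzyme of that pathway, read 12.44, 12.51 and 12.39 and 11.18, 9.92 and 8.18, a change of -2.69 (SE 0.73, adjusted p = 0.0084). Tdo2, which breaks down tryptophan, and Gnmt, which uses methyl groups of S-adenosylmethionine, changed by -2.14 (SE 0.50, adjusted p = 0.0034) and -2.09 (SE 0.41, adjusted p = 0.0011) and had the order of Hal, with liver tumor 1 the highest tumor. The tyrosine enzyme gene Tat read 13.05, 12.99 and 13.23 in normal liver and 13.19, 11.15 and 10.85 in the tumors, and Mat1a, which makes S-adenosylmethionine, 13.37, 13.44 and 13.45 and 13.45, 12.30 and 11.93. In liver tumor 1 alone Tat was at 0.10 (adjusted p = 0.68) and Mat1a at 0.02 (adjusted p = 0.92), on the other side of 0 from their changes of -1.36 and -0.86 over all tumors. Without liver tumor 1 they were at -2.09 and -1.31, and without liver tumor 3 Mat1a was at -0.55 (adjusted p = 0.086).

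Glucose production genes fell in 13 of 21 cases, against 30.7% of all genes, and rose in 1, with a median of -0.85. With liver tumor 1 as the only tumor the median was -0.24, against -0.12 over all genes. With normal liver 3 as the only control it was -0.80. G6pc, which releases glucose, read 12.93, 12.98 and 12.78 in normal liver and 11.97, 10.53 and 9.62 in the tumors, a change of -2.19 (SE 0.50, adjusted p = 0.0031). The glycogen phosphorylase gene Pygl and the fructose kinase gene Khk changed by -1.59 (SE 0.14, adjusted p = 2.6e-06) and -1.53. Pck1, which commits carbon to glucose, read 12.28, 12.23 and 11.93 in normal liver and 12.75, 11.10 and 10.84 in the tumors, above normal liver in tumor 1 and below it in the others, and was not called (-0.58 (adjusted p = 0.44)). Igfbp1, a secreted binder of insulin-like growth factors, rose and read 10.70, 10.70 and 10.96 and 12.76, 11.11 and 11.75, a change of 1.09 (SE 0.35, adjusted p = 0.02), or 0.65 (adjusted p = 0.073) without liver tumor 1.

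These enzymes are zoned along the liver lobule, so the same arrays can be read by zone. Of 16 genes of hepatocytes around the central vein 11 fell and 1 rose, with a median of -0.87. Of 14 genes of hepatocytes around the portal vein 9 fell and none rose, with a median of -1.29, and 4 fell with liver tumor 1 as the only tumor. Glul, glutamine synthetase of the innermost pericentral cells, read 12.77, 12.71 and 12.86 in normal liver and 11.92, 11.98 and 11.70 in the tumors, a change of -0.92 (SE 0.13, adjusted p = 0.00013). Aldh1a7 and the glutamate transporter gene Slc1a2 changed by -2.58 and -1.59, and Slc1a4 was the one that rose, at 0.49. On the portal side Etnppl, Hal and G6pc were the largest falls, followed by Aldh1b1 at -1.89.

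**Figure D4:**
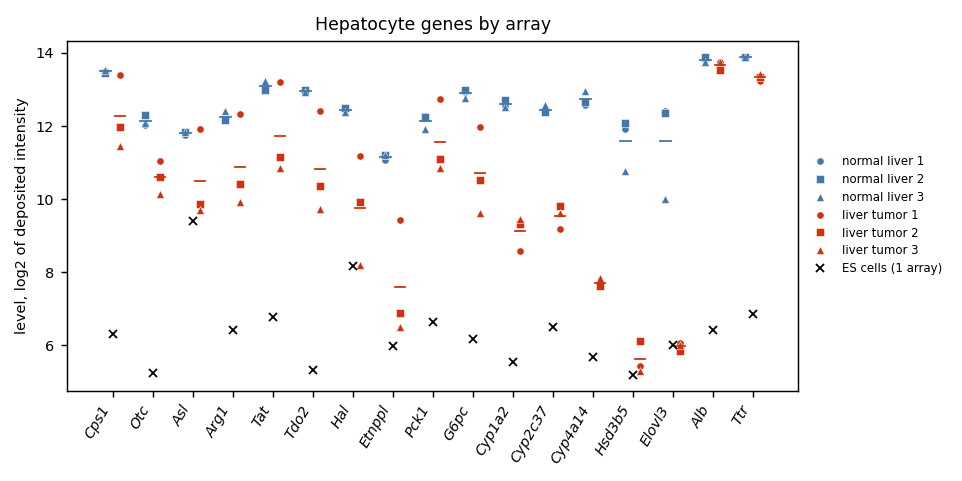
Levels (log2 of the deposited intensity) of hepatocyte genes in each of 3 normal liver arrays, 3 liver tumor arrays and 1 ES cell array, with bars at the group means. For Cps1, Asl, Arg1 and Tat liver tumor 1 lies at about the level of normal liver while liver tumors 2 and 3 lie below it, whereas Cyp1a2, Cyp4a14, Hsd3b5 and Elovl3 are low in all 3 tumors.

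Energy genes of mitochondria and peroxisomes fell in nearly all cases. Of 26 genes of fatty acid oxidation and ketone production 25 fell, against 30.7% of all genes, and none rose, with a median of -1.16. Acaa1b, a peroxisomal thiolase, read 10.71, 10.92 and 11.08 in normal liver and 7.24, 8.29 and 8.77 in the tumors, a change of -2.81 (SE 0.31, adjusted p = 1.4e-05), and Acsm1, Ehhadh and Cpt2 changed by -2.13, -1.71 and -1.71. Cpt1a, which admits fatty acids to mitochondria, was the one not called, at -0.49 (adjusted p = 0.2). All 33 genes of oxidative phosphorylation fell, with a narrow range of changes from -1.19 to -0.33. In all of them every tumor was below every normal liver, against 37.2% of all genes. Ndufa1, of complex I, read 9.39, 9.22 and 9.52 in normal liver and 8.01, 8.29 and 8.25 in the tumors, a change of -1.19 (SE 0.11, adjusted p = 3.9e-06). Ndufb9, Sdhb and Uqcrfs1, of complexes I, II and III, changed by -1.11, -1.09 and -1.02. 

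**Figure D5:**
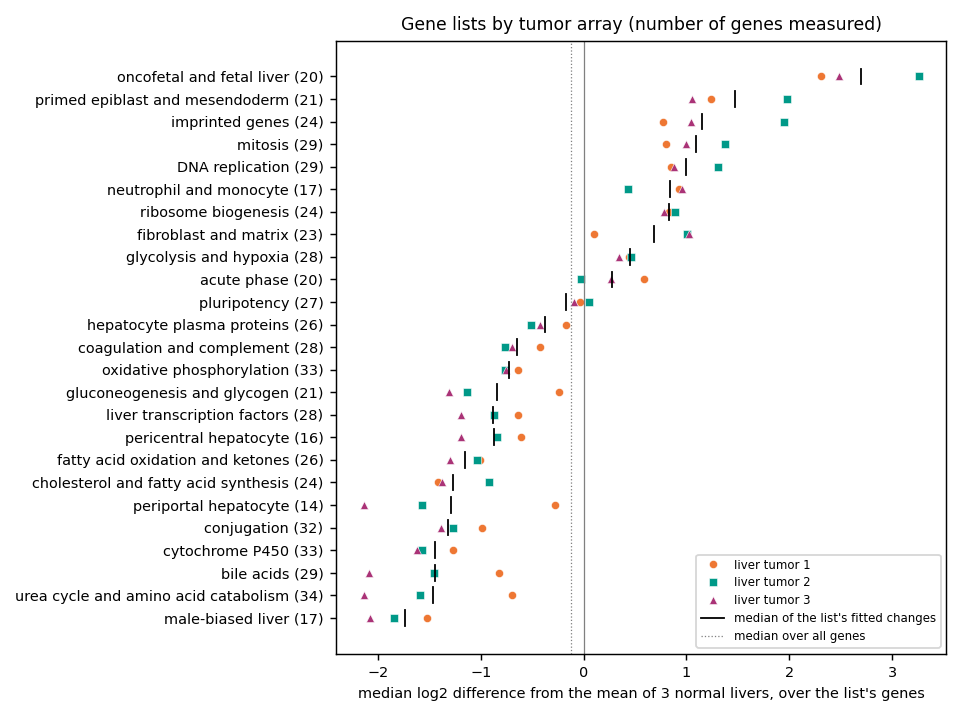
Median log2 difference from the mean of the 3 normal livers over the genes of 25 lists, for each liver tumor array (points), with the median of the fitted changes (black bars), 0 (solid line) and the median over all genes (dotted line). Liver tumor 1 lies nearest to 0 for the urea cycle, periportal and glucose production lists and for fibroblast and matrix genes, and liver tumor 2 lies highest for the fetal liver, epiblast and imprinted lists.

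Among genes called and at least 2-fold different, liver tumor 1 was most often the tumor nearest to normal liver. Among the 1431 genes at least 2-fold higher, the median difference from normal liver was 1.2 in liver tumor 1, 1.69 in liver tumor 2 and 1.42 in liver tumor 3, and liver tumor 1 had the smallest difference of the tumors for 921 of them. Among the 990 genes at least 2-fold lower the medians were -1.24, -1.38 and -1.60, and liver tumor 1 had the smallest for 540. The order was not shared by all genes, since Pou5f1, Nanog, Tdgf1, Utf1, Dnmt3b and the miR-302 hairpins were highest in liver tumor 1.

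Targets of p53, the tumor suppressor that responds to DNA damage, rose in 10 of 15 cases and fell in 3, with a median of 0.51. The death receptor genes Tnfrsf10b and Eda2r changed by 1.73 (SE 0.12, adjusted p = 4.9e-07) and 1.51 (SE 0.11, adjusted p = 6.9e-07), and Btg2 and Zmat3 by 1.45 and 1.02. Fas, another death receptor gene, went the other way and read 8.65, 8.71 and 8.76 in normal liver and 7.57, 7.67 and 7.74 in the tumors, a change of -1.05 (SE 0.11, adjusted p = 1e-05). Perp and Bbc3 also fell, at -0.92 and -0.54. Among 17 targets of Wnt signalling 4 rose and 6 fell, against 21.5% and 30.7% of all genes. Their median was 0.04, or -0.07 with arrays centred on the median. The secreted Wnt inhibitor gene Dkk1 read 7.28, 7.27 and 7.19 in normal liver and 10.09, 11.20 and 10.06 in the tumors, a change of 3.20 (SE 0.24, adjusted p = 7.6e-07), and Lef1, Apcdd1 and Nkd1 changed by 1.76, 1.67 and 0.64. Notum and Rnf43, which damp Wnt signalling and which pericentral hepatocytes express, fell, at -1.56 (SE 0.19, adjusted p = 2.6e-05) and -1.22. Axin2, the most general target, was not called at 0.28 (adjusted p = 0.098).

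Markers of bile duct and progenitor cells rose in 8 of 19 cases and fell in 1, with a median of 0.47. Cd24a read 9.46, 11.45 and 8.44 in normal liver and 12.13, 12.91 and 12.33 in the tumors, a change of 2.67 (SE 0.52, adjusted p = 0.0011), and normal liver 2 was the highest normal liver for it. Sox4 and Prom1 changed by 2.12 and 1.63, and Sctr, the secretin receptor of bile ducts, fell, at -0.68, or -0.40 (adjusted p = 0.066) without normal liver 1. Krt19, the keratin of bile ducts, read 7.63, 7.65 and 7.58 and 7.78, 9.49 and 9.12, a change of 1.17 (SE 0.38, adjusted p = 0.02), and with liver tumor 1 alone it was at 0.16 (adjusted p = 0.77). Neural genes rose in 11 of 24 cases and fell in 1, with a median of 0.79. Sox11, of neural progenitors, read 6.91, 7.09 and 6.92 in normal liver and 10.33, 10.88 and 10.31 in the tumors, a change of 3.53 (SE 0.19, adjusted p = 6.1e-08), and Zic1, Nes and Pax6 changed by 2.37, 2.03 and 1.73. Gfap, of astrocytes, fell, at -0.41. Stmn2, of mature neurons, read 10.05, 6.46 and 6.11 and 9.47, 9.46 and 8.52, high in normal liver 1, and was not called.

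Genes of the cells around hepatocytes also gave calls, to be read against the 21.5% of all genes that rose and the 30.7% that fell. Of 17 genes of neutrophils and monocytes 13 rose and none fell, with a median of 0.84, and 8 rose with the 6 liver arrays alone. Ccr2, of inflammatory monocytes, read 6.28, 6.55 and 6.04 in normal liver and 7.79, 8.03 and 9.02 in the tumors, a change of 1.99 (SE 0.43, adjusted p = 0.002), and Il1b, Cxcr2 and Mmp9 changed by 1.34, 1.16 and 1.10, with Mmp9 at 0.71 without liver tumor 2. Of 21 genes of macrophages and Kupffer cells 8 rose and 2 fell, with a median of 0.42. Cd14 read 7.10, 7.07 and 6.99 and 9.15, 9.37 and 10.96, a change of 2.78 (SE 0.55, adjusted p = 0.0012), and Mpeg1, Hmox1 and Lyz2 changed by 1.54, 1.48 and 1.40. The 2 that fell, Clec4f at -0.61 (SE 0.18, adjusted p = 0.012) and Timd4 at -0.49 (SE 0.15, adjusted p = 0.015), mark the resident Kupffer cells of mouse liver. Both were named because they were called, so they do not give the direction of Kupffer cell markers as a set. Without liver tumor 2 Clec4f was at -0.34 and Timd4 at -0.39 (adjusted p = 0.064). Of 20 lymphocyte genes 6 fell, near the share of all genes that fell (30.7%), and none rose. Without normal liver 1 the number that fell was 3, and with the 6 liver arrays alone 2. Their median was -0.15 against -0.13 for all genes. Of 15 antigen presentation genes 1 rose.

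Of 20 genes of hepatic stellate cells, which store vitamin A, 9 fell and 2 rose, against 30.7% and 21.5% of all genes. Their median was -0.36. Lrat, which makes retinyl esters, read 10.27, 10.63 and 10.45 in normal liver and 8.15, 8.60 and 7.12 in the tumors, a change of -2.49 (SE 0.30, adjusted p = 3e-05), and Vipr1, Colec10 and Gdf2 changed by -1.74, -1.61 and -1.35. Bmp10 and Pdgfra rose, at 1.18 and 1.12, but neither was called with the 6 liver arrays alone (adjusted p = 0.088 and 0.075). Bmp10 was at 0.60 without liver tumor 3, and Pdgfra at 0.16 (adjusted p = 0.6) with liver tumor 1 as the only tumor. Of 23 fibroblast and matrix genes 11 rose and none fell, with a median of 0.68, and 4 rose with liver tumor 1 as the only tumor. Vcan, the proteoglycan versican, read 7.26, 6.48 and 6.67 in normal liver and 9.44, 11.20 and 10.68 in the tumors, a change of 3.64 (SE 0.37, adjusted p = 8.5e-06). Tnc, tenascin C, read 7.96, 7.35 and 7.62 and 8.40, 10.49 and 11.63, a change of 2.53 (SE 0.57, adjusted p = 0.0028), and Timp1 and Acta2 changed by 2.77 (SE 0.43, adjusted p = 0.00021) and 1.89 (SE 0.53, adjusted p = 0.01). Acta2 lost its call without normal liver 2, at 1.37, with the 6 liver arrays alone (adjusted p = 0.058) and with liver tumor 1 as the only tumor, at 0.96 (adjusted p = 0.34). The collagen genes Col1a1 and Col3a1 were not called, at 0.67 (adjusted p = 0.16) and 0.00 (adjusted p = 0.99). Among 23 endothelial genes 3 rose and 4 fell, fewer than the 21.5% and 30.7% of all genes, with a median of 0.23. Clec4g, of sinusoidal endothelium, read 10.88, 10.73 and 10.81 in normal liver and 9.54, 9.50 and 8.98 in the tumors, a change of -1.47 (SE 0.13, adjusted p = 3.4e-06), and Dnase1l3, Gpr182 and Wnt9b also fell, at -1.01, -0.58 and -0.30. The VEGF receptor gene Flt1, Rspo3 and Bmp2 rose, at 1.11, 0.95 and 0.81. With the 6 liver arrays alone Flt1 kept its call (adjusted p = 0.013), and Rspo3 and Bmp2 lost theirs (adjusted p = 0.07 and 0.1). Without liver tumor 2 Rspo3 was at 0.71 (adjusted p = 0.056) and Bmp2 at 0.39. With liver tumor 1 as the only tumor they were at 0.14 (adjusted p = 0.67) and 0.20 (adjusted p = 0.39).

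Of 28 kidney tubule genes 10 fell and 2 rose, against 30.7% and 21.5% of all genes. When normal liver 1 was left out 4 fell, with the median moving from -0.79 to -0.43. Of 18 adrenal genes 6 fell and 1 rose, and without that array 5 fell and 1 rose, with the median moving from -1.04 to -0.26. With the 6 liver arrays alone 5 kidney tubule and 2 adrenal genes fell and none rose. Of 13 adipocyte genes 2 fell, and none fell without normal liver 1, with the median moving from -1.46 to -0.32. With normal liver 3 as the only control the medians of the kidney tubule, adrenal and adipocyte lists were -0.18, -0.33 and -0.31. The 2 kidney tubule genes that rose were the endocytic receptors Lrp2 and Cubn, which the yolk sac also makes, at 1.53 (SE 0.49, adjusted p = 0.021) and 1.43 (SE 0.57, adjusted p = 0.049), and without normal liver 1 they were at 2.25 (adjusted p = 0.00021) and 2.04 (adjusted p = 0.0082). Without normal liver 3 they were at 0.87 (adjusted p = 0.084) and 0.94 (adjusted p = 0.2).

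Kidney tumors of reprogrammable mice were profiled on the same kind of array, and the liver effect minus the kidney effect (kidney tumor minus normal kidney, 3 arrays each) was called for 3350 genes (16.8%), 1847 above 0 (9.26%) and 1503 below (7.54%). Pou5f1, Sox2 and Nanog did not pass this test, with differences of -0.30 (SE 0.60, adjusted p = 0.79), -0.24 (SE 0.34, adjusted p = 0.7) and 0.62 (SE 0.39, adjusted p = 0.32). Of the genes that went opposite ways, Cyp4a14 had the largest difference, with a change of -5.04 in liver and 2.08 (adjusted p = 0.00029) in kidney. Igf2 rose in both, by 2.05 in liver and 4.85 (adjusted p = 3.1e-06) in kidney.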

How the data were processed

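Total RNA, extracted with the RNeasy Plus Mini kit and labelled with the WT Terminal Labeling Kit per the labels' protocols, was hybridised to Affymetrix arrays. The authors deposited linear intensities, with 1 value for each probe set on each array. How they were normalized is not given in the sources used here, and no detection call accompanies them. Values were log2-transformed without rescaling. Of 28856 probe sets, 21789 had 1 gene symbol in the platform annotation (2016), 1621 several and 5446 none. Probe sets with 1 symbol were used, and for the 999 genes with several the one of highest mean over all 16 arrays was kept, leaving 19938 genes.

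limma 3.58.1 in R 4.3.3 was fitted to all 16 arrays with 1 coefficient per group, with empirical Bayes moderation and no trend. There were 10 residual and 2.66 prior degrees of freedom. Tests were 2-sided, with p-values adjusted by Benjamini-Hochberg over all genes and a threshold of 0.05. Each gene has a common variance in all groups. This understates the error of a group more variable than the others and overstates that of a less variable one. The steps were tested on simulated data. Precision is limited by the number of arrays.

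The 51 gene lists hold 1239 entries, of which 1095 had a probe set. Members and lists were chosen with earlier results of these data known. Lists are described by counts and medians, without a test. Named were, for each direction, the 12 largest folds among genes that were called with and without normal liver 1 and did not overlap, the called members of largest fold of each list (2 to 4, or the whole list where it has 6 or fewer), Pou5f1, Sox2, Klf4, Myc, Nanog, Lin28b, Igf2, Afp and Alb throughout, and the 5 genes of largest difference between organs with opposite signs. Genes named beyond this rule were chosen after their values were seen. Replicates of normal liver and liver tumor with the same number did not deviate together (correlations of -0.155, -0.278 and -0.107), so they were not treated as pairs. Fitted as alternatives were the 6 liver arrays alone, a replicate block, quantile normalization, median centring, the dimmest 33.3% of genes left out, the mean of a gene's probe sets, an intensity trend with a robust prior, and each array left out in turn. Liver tumor 1 as the only tumor and normal liver 3 as the only control were added after seeing the data. Sequences and their coordinates are RefSeq's on GRCm38.p6, and 27 of 28 measured hairpins matched a mature sequence.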

Additional observations from a re-analysis of the deposited data

Results flagged for a closer look

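In 7 genes named by rule the liver effect and the kidney effect (tumor minus normal tissue) differed by the interaction contrast of the limma fit. The Cyp4a14 difference was -7.12 (SE 0.50, adjusted p = 6.2e-06): it changed by -5.04 in liver and 2.08 (adjusted p = 0.00029) in kidney. Esm1, a secreted proteoglycan of endothelium, read 6.48, 6.52 and 6.51 in normal liver and 8.19, 7.68 and 10.40 in liver tumors, a change of 2.25 (adjusted p = 0.0029), and -1.62 (adjusted p = 0.018) in kidney, a difference of 3.88 (SE 0.72, adjusted p = 0.0029) that liver tumor 3 raised most, with a liver change of 1.43 without it. Pdk3, a kinase that holds back pyruvate oxidation, changed by 2.60 (adjusted p = 4.8e-07) in liver and -1.06 (adjusted p = 0.00033) in kidney, a difference of 3.66 (SE 0.26, adjusted p = 6.2e-06). Dbp, a clock-controlled factor, changed by 0.99 (adjusted p = 0.0061) and -2.37 (adjusted p = 8e-06), a difference of 3.36 (SE 0.36, adjusted p = 8.1e-05). Raet1d went the other way, at -1.74 (adjusted p = 0.0013) in liver and 1.94 (adjusted p = 0.00046) in kidney, a difference of -3.67 (SE 0.49, adjusted p = 0.00035). These 5 had opposite signs in the organs. Igf2 rose in both, with a difference of -2.80 (SE 0.65, adjusted p = 0.011), since the kidney change was the larger. Alb was not called in liver and changed by -2.41 (adjusted p = 8.1e-05) in kidney, a difference of 2.27 (SE 0.49, adjusted p = 0.007).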

How the results depend on the processing

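The 24 genes of largest fold, chosen as called with and without normal liver 1 and as not overlapping between groups, stayed past the threshold in the other 331 re-fits run for them, which that choice favours. Of 42 gene lists with at least 5 calls in their leading direction, that count moved by over 1.5 times in 3 without normal liver 1, in 1 with quantile normalization, in 1 with centring on the median, in 11 with the 6 liver arrays alone, in 20 with liver tumor 1 as the only tumor and in 22 with normal liver 3 as the only control. The leading direction turned in 1 of these lists with the 6 liver arrays alone and in 1 with centring on the median. It also turned in 1, the kidney tubule list, with normal liver 3 as the only control. Leaving out 1 array gave 3685 to 4678 genes higher and 4876 to 6182 lower in liver tumors, and for the liver effect minus the kidney effect 1394 to 2460 above 0 and 1127 to 2113 below. With the replicate block, which the replicate numbers do not support as pairs, the liver counts were 2552 and 2558, or 49.9% higher, and those of the difference between organs 937 and 785. The block kept 2528 of the 4296 higher and 2488 of the 6123 lower calls. Liver tumor 1 as the only tumor gave 2613 and 3249 calls, and normal liver 3 as the only control 2737 and 3512, with 1166 above 0 for the difference between organs. Both use fewer samples, and the lone sample is assumed to vary like the other groups. Leaving out the dimmest 33.3% of genes gave 3796 lower calls, from fewer genes tested. Of the 260 called genes named in the text, 43 missed the threshold with the 6 liver arrays alone, 66 with liver tumor 1 as the only tumor and 67 with normal liver 3 as the only control. With liver tumor 1 alone, 4 called genes named in the text lay on the other side of 0: Gata6 at -0.0274, Asl at 0.103, Tat at 0.104 and Mat1a at 0.0247. Quantile normalization gave a median change over all genes of -0.07. With no detection call in the files, changes of genes low in both groups cannot be told from changes in background.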

Other observations

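Hox genes, which set position along the body axis, gave few calls in liver tumors: 4 of 25 rose and 1 fell, with a median of -0.10, against 21.5% and 30.7% of all genes. The 4 that rose are anterior members, used in the hindbrain. Hoxb2 read 7.61, 8.10 and 7.84 in normal liver and 8.88, 9.69 and 9.77 in the tumors, a change of 1.60 (SE 0.21, adjusted p = 5.3e-05). Hoxb1 read 7.54, 7.54 and 7.73 and 8.41, 9.07 and 9.34, a change of 1.34 (SE 0.26, adjusted p = 0.001), and Hoxa2 and Hoxb3 changed by 0.76 (adjusted p = 0.021) and 0.40 (adjusted p = 0.049). The germ cell list, whose members Ddx4 and Mael read 9.54 and 9.19 in ES cells, had no riser among 20 genes. In it 6 fell, near the share of all genes that fell (30.7%), or 2 with the 6 liver arrays alone. Ddx4 read 5.60, 5.53 and 5.39 in normal liver and 5.47, 5.70 and 5.61 in the tumors, and Mael 5.33, 5.34 and 5.38 and 5.14, 5.07 and 5.27. Of 18 genes of skin and mucosal epithelium 2 fell and none rose, against 30.7% and 21.5% of all genes. Of 16 pancreas genes 11 fell and none rose, and of 15 genes of intestine and stomach 7 fell and none rose. With the 6 liver arrays alone 6 pancreas genes and 3 of intestine and stomach fell, among 21.5% of all genes. The largest falls of the last 2 lists were Cela1 at -1.06 and Fabp2 at -1.03.

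In the red cell list 1 of 19 genes rose and 3 fell, fewer than the 21.5% and 30.7% of all genes, and the median was -0.23. With arrays centred on the median 8 fell, where 8777 of all 19938 genes were lower. Car1, a carbonic anhydrase of red cells, read 9.91, 10.05 and 9.91 in normal liver and 7.02, 7.05 and 7.47 in the tumors, a change of -2.78 (SE 0.12, adjusted p = 1.5e-08), and the normal livers were level for it, unlike Alas2. Hbb-bh1, an embryonic globin, read 5.73, 6.05 and 6.09 and 7.72, 7.39 and 7.55, a change of 1.60 (SE 0.46, adjusted p = 0.012). Trim10 and Gata1 fell, at -0.89 and -0.32, with Trim10 at -0.35 (adjusted p = 0.095) without normal liver 2. Of 11 mesothelial genes 5 rose and none fell, with a median of 0.46, or -0.01 with liver tumor 1 as the only tumor. With the 6 liver arrays alone 2 rose, among 17.6% of all genes. Lrrn4 read 7.89, 7.66 and 7.17 in normal liver and 8.90, 10.13 and 9.48 in the tumors, a change of 1.93 (SE 0.25, adjusted p = 5.5e-05), and Aldh1a2, Upk1b and Wt1 changed by 1.06, 0.93 and 0.61, with Wt1 at 0.35 (adjusted p = 0.14) without liver tumor 2. Of 18 genes of visceral endoderm and yolk sac 6 rose and 3 fell, but 3 rose and 5 fell with the 6 liver arrays alone. In 3 every tumor was above and in 6 below every normal liver, against 22% and 37.2% of all genes. Lgmn, a lysosomal protease, rose, at 0.66 (adjusted p = 0.014), and Apom fell, at -0.83 (adjusted p = 0.0026).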
